A study of Homo sapiens with 8 samples.

Results

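The BCL2 family decides whether the outer membrane of the mitochondria stays closed or is permeabilized during apoptosis. Antiapoptotic members (BCL2, BCL2L1, MCL1 and BCL2L2) hold the pore-forming effectors (BAX and BAK1) in check, and BH3-only members (BID, BCL2L11, BBC3 and PMAIP1) relay damage and stress by binding the former or by activating the latter. Once the effectors open the membrane, cytochrome c leaves the mitochondria and activates caspase-9 through APAF1. In ovarian cancer the family is known for its place in the response to platinum drugs. These 10 genes were taken with every array probe whose RefSeq accession belonged to them, which gave 15 probes of 10 genes, of 28166 probes of 20499 genes that could be named.

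RNA was measured on 8 single-colour arrays, in 4 groups of 2. The cells were MDAH, an epithelial ovarian cancer line, and SKOV3, another line of the same cancer. In each line the silenced group held 1 array of cells transduced with sh-SFPQ#2 and 1 with sh-SFPQ#3, short hairpin RNAs against the RNA-binding splicing factor SFPQ, and the control group held 2 arrays of cells not silenced for SFPQ. The labels have both controls carrying the control shRNA, but the study's methods name untransduced cells as well, so that the controls are called only not silenced here. No group had received platinum according to the labels. Nothing states that the arrays of a group came from separate cultures, so that p-values measure only the spread between these samples. All arrays lay on 1 slide, each line in a row with its controls before its silenced samples, and position and group cannot be told apart.

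All signals below are log2 values relative to the 75th percentile of their array, and they were not compared between probes. A change is the silenced mean minus the control mean, and it was called where limma's p, adjusted over the 20929 probes tested, was under 0.05. The 75th percentile signal ranged from 243.9 in the MDAH sh-SFPQ#3 array to 496.2, and 47.7 to 57.0% of the probes were well above background. SFPQ itself fell by 1.50 in MDAH (adjusted p = 0.0313) and fell by 2.01 in SKOV3 cells (adjusted p = 0.0263, limma), and it was lower with sh-SFPQ#3 than with sh-SFPQ#2 in both lines (2.10 against 2.45 in MDAH, 2.48 against 3.01 in SKOV3 cells). These calls were lost when control 1 or 2 of either line or the sh-SFPQ#3 array of the line was left out (adjusted p from 0.0625 to 0.193 in MDAH and from 0.0700 to 0.106 in SKOV3 cells). They were also lost with the arrays of 1 line alone (adjusted p = 0.0563 in MDAH and 0.136 in SKOV3 cells, limma), with the methods' t-test after the same adjustment (0.375 and 0.414) and, in MDAH cells, with median centring (0.0562) or without a filter on dim probes (0.0504). The average over both lines, which fell by 1.75 (adjusted p = 0.00573), kept passing with any array left out (adjusted p from 0.00581 to 0.0464, limma). ERBB2, the receptor that SKOV3 cells amplify, was lower by 4.15 in MDAH than in SKOV3 controls. Of the epithelial and ovarian carcinoma markers 9 of 10 were well above background on at least 1 array, MSLN on none. WT1 was so on 4 arrays and CDH1 on 6, neither of them in SKOV3 controls. EPCAM and KRT19 were higher in MDAH than in SKOV3 controls by 3.64 and 4.75, and KRT7 was lower by 4.24. Among the leukocyte, endothelial and fibroblast markers CD3E, COL3A1, PDGFRA and LUM were well above background on no array, whereas PTPRC, CD14, CDH5 and COL1A1 were above it on all 8. COL1A1 rose in the average over both lines (1.18, adjusted p = 0.0263), and its part in the results below was not tested. MUC16 was well above background on 2 arrays only, those of silenced SKOV3 cells, where it was at least 2.59-fold higher than in the controls (adjusted p = 0.0564, limma).

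BCL2, the founding antiapoptotic member, fell on SFPQ silencing, and its change was the largest of the members in both lines with the scaling used here. Its transcripts were read by probes of 2 accessions: NM_000633, the alpha form with the membrane anchor, was printed in 10 spots per array, and NM_000657, the beta form without this anchor, in 1 spot. For the NM_000633 probe the MDAH controls lay at -1.89 and -2.24 while silencing with sh-SFPQ#2 gave -4.50 and with sh-SFPQ#3 -5.53. In SKOV3 cells the controls lay at -1.11 and -1.24 and the silenced cells at -3.24 and -5.67. Every silenced array lay below every control array, of either line.

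Averaged over both lines, the NM_000633 signal fell by 3.11 (SE 0.52, 95% interval -4.36 to -1.87, adjusted p = 0.0239, limma), and this was the only call among the 15 member probes in the silencing contrasts. In that average 6.90% of all probes were called, 4.17% in the same direction. The NM_000633 probe passed the filter for testing through the control groups alone, where both arrays were well above background. The filter therefore favoured a fall of this probe. The change was -2.95 in MDAH (SE 0.74, adjusted p = 0.0904) and -3.28 in SKOV3 cells (SE 0.74, adjusted p = 0.0890), and neither line passed alone. The difference between the lines was 0.33 with an interval of -2.15 to 2.82. The call rested on most of the arrays. It was lost without control 1 or control 2 of MDAH, the MDAH sh-SFPQ#3 array or control 1 or control 2 of SKOV3, with changes of -2.86 to -3.20. It was not lost without the sh-SFPQ#2 array of either line or the SKOV3 sh-SFPQ#3 array. With normexp background correction, which adds an offset to every signal, the average was -1.10 (adjusted p = 0.00288, limma). In MDAH cells the change was then -0.70, smaller in size than the 0.78 of MCL1.

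On 3 of the 4 silenced arrays the NM_000633 probe was not well above background. On the scale of the scanner its mean signal went from 133.5 and 101.8 in the MDAH controls to 17.9 and 5.3, and from 202.4 and 164.0 in the SKOV3 controls to 49.0 and 9.2. Of its spots 2 of 10 were well above background with sh-SFPQ#2 in MDAH cells, 10 of 10 with sh-SFPQ#2 in SKOV3 cells and 0 of 10 with sh-SFPQ#3 in either line. In MDAH cells the change of this probe, not called by limma (adjusted p = 0.0904), is therefore a bound with the scaling used here. It does not hold for the NM_000657 probe, which was 1.94-fold lower there (adjusted p = 0.214, limma). The NM_000633 signal was at least 3.96-fold lower after silencing. For this a dim signal was set to the lowest signal well above background on its array. With the same floor put under every probe, the average over both lines fell by 2.27 (adjusted p = 0.00332, limma). The changes in MDAH (-1.98, adjusted p = 0.0204) and SKOV3 cells (-2.55, adjusted p = 0.0184) then both passed. The floor replaces the dim signals and so narrows the spread between the silenced arrays. These smaller p-values are therefore no further support for the change.

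**Figure D1:**
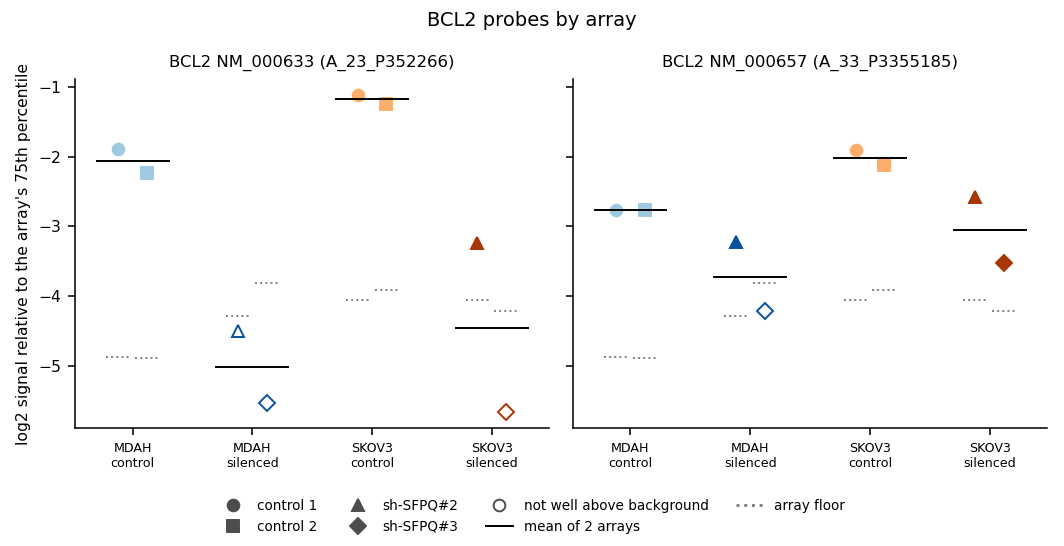
Signal of the BCL2 probes on each array, as log2 relative to the array's 75th percentile, with controls and silenced cells of both lines on the horizontal axis. Open symbols were not well above background, dotted lines mark the lowest signal well above background on that array, and all 4 silenced arrays lie below the controls of their line for both probes.

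The NM_000657 probe showed the same order with smaller differences. The MDAH controls read -2.77 and -2.76, the sh-SFPQ#2 array -3.23 and the sh-SFPQ#3 array -4.21, the last not well above background. The SKOV3 controls read -1.91 and -2.12, the sh-SFPQ#2 array -2.58 and the sh-SFPQ#3 array -3.53. Silenced and control arrays did not overlap in either line, but the average of -1.0 (SE 0.28) did not pass (adjusted p = 0.0805, limma). Both BCL2 probes were thus lower without overlap in both lines, which held for 10.5% of all probes.

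The NM_000633 probe differed from the NM_000657 probe by -2.12 in the average change, which limma's diffSplice test of probes against the other probes of their gene did not call (adjusted p = 0.105, where 5.14% of the 9474 probes tested were called). In MDAH cells this difference was -1.99 (adjusted p = 0.456, 2.04% called) and in SKOV3 cells -2.24 (adjusted p = 0.367, 1.41% called). In the average, 0 of the 9 member probes with a further probe of their gene were called. Only the BCL2 pair had an unadjusted p under 0.05 (0.00775, diffSplice). Where a gene had 2 tested probes, as BCL2 did, their tests are 1 comparison with opposite signs. With the array floor, which narrows the spread between silenced arrays here too, the BCL2 difference was -1.37 (adjusted p = 0.0385, diffSplice). The NM_000657 probe was lower with sh-SFPQ#3 than with sh-SFPQ#2 by 0.95 in SKOV3 cells, where it was well above background on both arrays, with 1 array of each shRNA per line and no test. Elsewhere the sh-SFPQ#3 signals of the BCL2 probes were not well above background, so that the size of the difference between the shRNAs was not measured.

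BCL2L1, whose NM_138578 transcript encodes the antiapoptotic Bcl-XL, gave no call on silencing. The MDAH arrays read 0.35 and 0.44 in the controls and 0.55 and 0.15 after silencing with sh-SFPQ#2 and #3. The SKOV3 arrays read 1.27 and 1.60 in the controls and 1.66 and 1.22 after silencing. Groups overlapped in both lines, and the average change was -0.02 with a 95% interval of -0.41 to 0.37 (adjusted p = 0.951, limma). In both lines the sh-SFPQ#3 array lay below and the sh-SFPQ#2 array above both controls, the shRNAs differing by 0.40 in MDAH and 0.44 in SKOV3 cells. The probe carries the accession of the long form, and nothing in the files says whether it also reads the short, proapoptotic form.

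MCL1, an antiapoptotic member with a short-lived protein, lay higher in silenced MDAH cells. In MDAH cells the long transcript NM_021960 read 1.86 and 1.66 in the controls and 2.66 and 2.61 after silencing, and in SKOV3 cells 3.30 and 3.47 in the controls and 3.67 and 3.39 after silencing. The groups were apart in MDAH cells and overlapped in SKOV3 cells. The change was 0.88 in MDAH (SE 0.17, adjusted p = 0.0571) and 0.14 in SKOV3 cells (adjusted p = 0.666), and the average of 0.51 stood just outside the threshold (SE 0.12, adjusted p = 0.0554, limma). The difference between the lines, 0.73 with an interval of 0.16 to 1.31, did not pass over all probes (adjusted p = 0.277). MDAH silenced cells remained below both SKOV3 groups.

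BCL2L2, which encodes the antiapoptotic Bcl-w, read 1.97 and 2.31 in MDAH controls, 2.27 and 2.64 in MDAH silenced cells, 2.49 and 2.56 in SKOV3 controls and 2.59 and 2.61 in SKOV3 silenced cells. Its average change was 0.20 with an interval of -0.12 to 0.52 (adjusted p = 0.386, limma).

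The effectors did not pass in either line. BAX was read by a 10-spot probe of NM_138764 and a 1-spot probe of NM_004324, the beta form. The former read 3.96 and 4.14 in MDAH controls, 4.28 and 4.19 after silencing, 4.51 and 4.68 in SKOV3 controls and 4.41 and 3.97 after silencing. It was thus higher without overlap in MDAH (0.18, adjusted p = 0.601) and lower without overlap in SKOV3 cells (-0.40, adjusted p = 0.305), and the difference between the lines of 0.59 did not pass (interval -0.07 to 1.24, adjusted p = 0.368, limma). The NM_004324 probe read -1.61 and -1.05 in MDAH controls, -0.84 and -1.07 after silencing, -0.63 and -0.17 in SKOV3 controls and -0.56 and -1.34 after silencing, with overlap in both lines.

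BAK1, the effector that resides in the mitochondrial membrane, read 1.98 and 2.42 in MDAH controls and 2.60 and 2.91 after silencing, a change of 0.55 (adjusted p = 0.179). In SKOV3 cells it read 2.62 and 2.77 in the controls and 2.68 and 2.50 after silencing, with overlap and a change of -0.10 (adjusted p = 0.803, limma). Its average change was 0.22, with an interval of -0.13 to 0.57.

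Among the BH3-only members, BCL2L11 lay higher in silenced cells and BID lower, without a call. BCL2L11 encodes Bim, which binds all antiapoptotic members, and its NM_138621 transcript encodes the extra-long form. This probe read 0.84 and 0.84 in MDAH controls, 1.30 and 1.32 after silencing, -0.11 and -0.68 in SKOV3 controls and 0.34 and 0.82 after silencing. Silenced arrays lay above the controls of their line in both lines. The change was 0.47 in MDAH (adjusted p = 0.295) and 0.98 in SKOV3 cells (adjusted p = 0.108), and the average of 0.72 (SE 0.17) gave an adjusted p of 0.0559 (limma).

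Both probes of the BCL2L11 accession NM_207002 had average changes of the same sign. The first, A_33_P3251932, read -0.91 and -1.09 in MDAH controls, -0.59 and -0.19 after silencing, -0.51 and -0.54 in SKOV3 controls and -0.55 and -0.15 after silencing (average 0.39, adjusted p = 0.149). The second, A_33_P3398526, read -0.29 and -0.32, -0.21 and 0.07, -1.78 and -2.24, and -1.53 and -1.66 in the same order (average 0.33, adjusted p = 0.198, limma). The NM_138621 probe and the second of these were higher without overlap in both lines, and no other member probe was, while 12.7% of all probes were.

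BID, which caspase-8 cleaves to link death receptors with the mitochondria, had 2 probes of the same accession, NM_197966. The probe A_24_P187948 read 4.04 and 4.40 in MDAH controls, 4.10 and 4.01 after silencing, 4.04 and 4.21 in SKOV3 controls and 3.64 and 3.46 after silencing. The probe A_33_P3227041 read 4.21 and 4.54, 3.96 and 4.25, 4.24 and 4.45, and 3.66 and 3.70 in the same order. On both probes the SKOV3 silenced arrays were the lowest of all 8, and the groups overlapped in MDAH cells. The SKOV3 changes were -0.58 (adjusted p = 0.160) and -0.66 (adjusted p = 0.138), and the averages were -0.37 (adjusted p = 0.128) and -0.47 (adjusted p = 0.0842, limma), so that the probes differed by 0.10.

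BBC3 encodes PUMA, which binds all antiapoptotic members. It read 3.23 and 3.30 in MDAH controls and 3.96 and 3.08 after silencing, where the shRNA arrays lay on either side of the controls. In SKOV3 cells it read 0.80 and 0.89 in the controls and 1.47 and 2.0 after silencing, a change of 0.89 (SE 0.31, adjusted p = 0.190, limma). PMAIP1 encodes NOXA, which binds MCL1. It read 2.19 and 1.95 in MDAH controls, 2.38 and 2.47 after silencing, 3.70 and 4.08 in SKOV3 controls and 3.89 and 4.06 after silencing, with an average change of 0.22 (interval -0.10 to 0.53, adjusted p = 0.336).

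**Figure D2:**
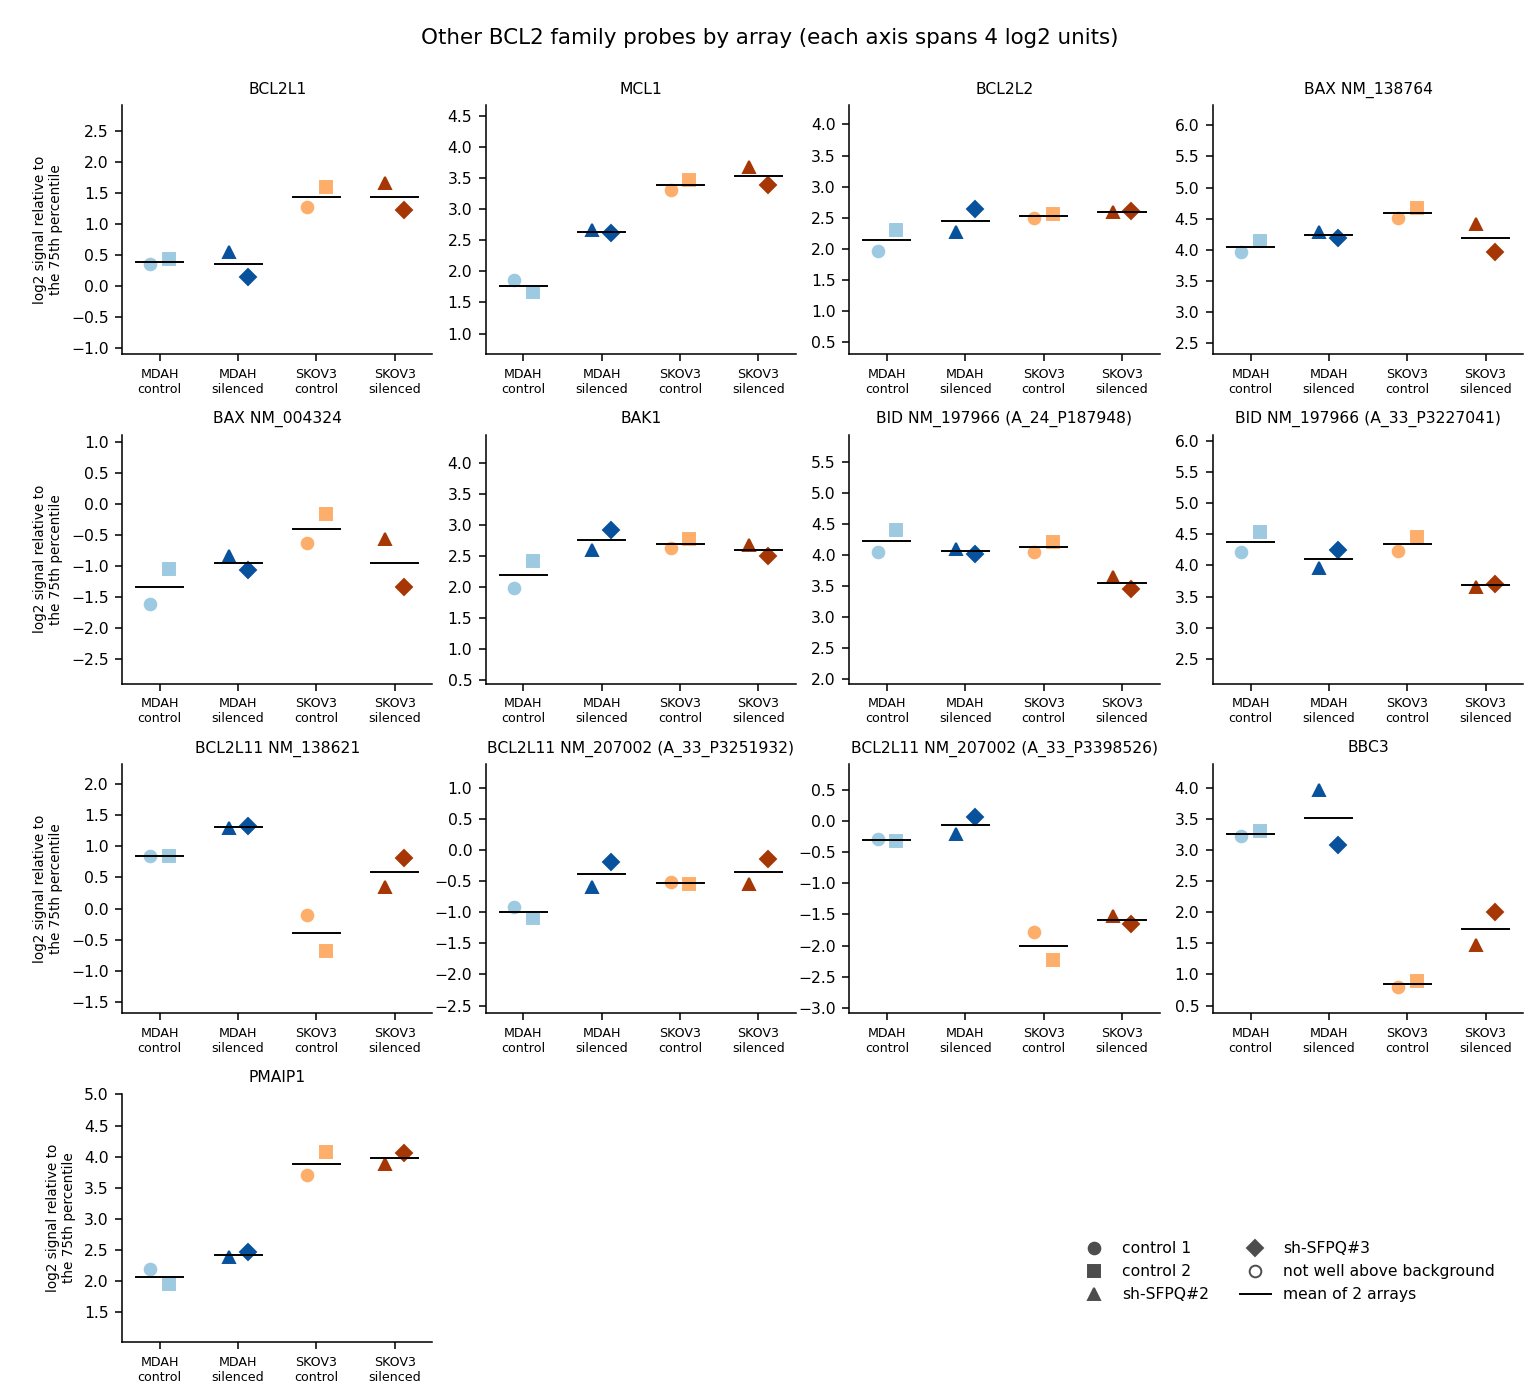
Signal of the 13 other member probes on each array, as log2 relative to the array's 75th percentile, with a span of 4 log2 units on every vertical axis. All were well above background on all 8 arrays, and the distances between MDAH and SKOV3 cells in BBC3, PMAIP1, MCL1 and a BCL2L11 probe are wider than the distances between silenced and control cells.

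By role, the 5 antiapoptotic probes had a median average change of -0.02, the 3 effector probes -0.09 and the 7 BH3-only probes 0.33, beside 0.04 for all probes tested. In MDAH cells alone limma called 0 of 15 member probes, where 2.27% of all probes were called, and 5 had an unadjusted p under 0.05, as had 23.3% of all probes. In SKOV3 cells it called 0 of 15, where 1.16% of all were called, and 6 had an unadjusted p under 0.05, as had 19.8% of all. In the average 8 of 15 had an unadjusted p under 0.05, against 26.9% of all probes. For the difference between the lines it called 0 of 15, where 0.119% of all were called, and 1 (MCL1) had an unadjusted p under 0.05, as had 14.7% of all. The methods' t-test on the arrays of 1 line called 0 of all 20929 probes in either line after Benjamini-Hochberg adjustment. Without adjustment 3 member probes in MDAH and 2 in SKOV3 cells were under 0.05, against 12.6% and 11.7% of all probes. Silenced and control arrays did not overlap for 9 of 15 member probes in MDAH cells (7 higher, 2 lower) and for 9 of 15 in SKOV3 cells (4 higher, 5 lower), near the 56.8% and 58.0% of all probes.

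**Figure D3:**
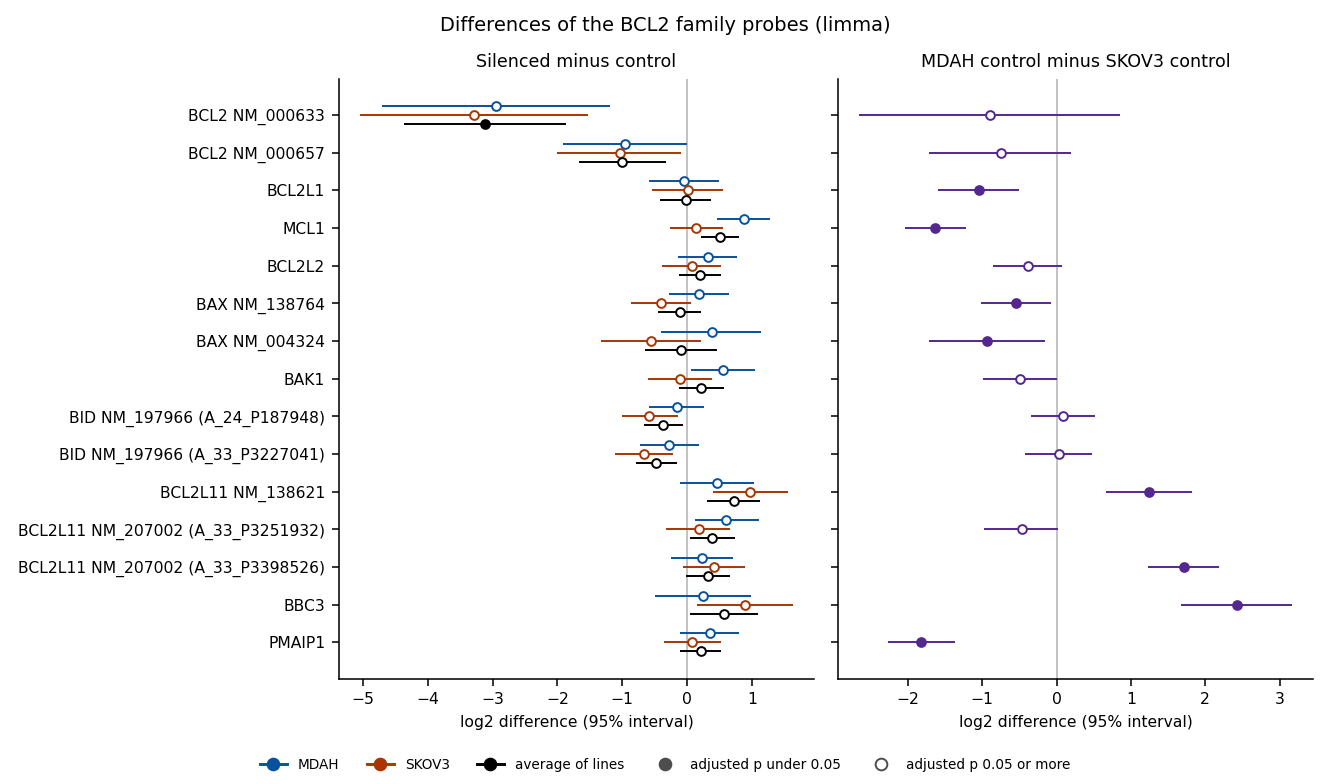
Differences of the 15 member probes on the log2 scale with 95% intervals from limma, on the left silenced minus control in MDAH cells, SKOV3 cells and the average of both, on the right MDAH minus SKOV3 controls. Filled points had an adjusted p under 0.05, which on the left holds for the average of the BCL2 NM_000633 probe alone and on the right for 8 probes.

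The control cells of the lines differed in most members. In the controls 8 of the 15 probes differed between MDAH and SKOV3, close to the 56.4% of all probes that did. BBC3 was higher in MDAH cells by 2.42 (SE 0.31, adjusted p = 0.000723), which is 5.36-fold. BCL2L11 was higher in MDAH cells by 1.24 with the NM_138621 probe (adjusted p = 0.00467) and by 1.71 with A_33_P3398526 (adjusted p = 0.000488, limma). The further BCL2L11 probe, A_33_P3251932, of the same accession as the latter, was -0.47 (adjusted p = 0.0920).

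PMAIP1 was lower in MDAH than in SKOV3 controls by 1.82 (3.52-fold, adjusted p = 0.000281), MCL1 by 1.63 (3.09-fold, adjusted p = 0.000298) and BCL2L1 by 1.04 (2.06-fold, adjusted p = 0.00754, limma), the last not called without SKOV3 control 2 (-0.88, adjusted p = 0.0507). BAX was lower by 0.54 with NM_138764 (adjusted p = 0.0490) and by 0.94 with NM_004324 (adjusted p = 0.0449, limma). Each call was lost with most single arrays left out. Among these arrays were SKOV3 control 2 (-0.46 and -0.71) and MDAH control 1 (-0.45 and -0.65). Some other settings lost them as well. BCL2 was -0.89 with NM_000633 (interval -2.65 to 0.86) and -0.75 with NM_000657, BCL2L2 was -0.39 and BAK1 was -0.49, none of which passed. The BID probes overlapped between the controls of the lines, with differences of 0.09 and 0.03. BBC3, PMAIP1 and MCL1 kept the order of the lines in silenced cells, where BBC3 averaged 3.52 in MDAH and 1.73 in SKOV3 cells, PMAIP1 2.42 and 3.97, and MCL1 2.63 and 3.53.

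Over the 8 arrays the probes that were well above background throughout varied most in BBC3 (SD 1.21) and least in BCL2L2 (SD 0.23). The genes whose signal followed BBC3 most closely among 5377 genes were TPBG (Pearson r = 0.996), TTC21A (r = 0.992) and SCAND3 (r = 0.992), and those closest to BCL2L1 were CYP27C1, TMEM127 and GPATCH1 (r = 0.992 each). These values describe 8 arrays of 2 lines, in which a difference between the lines is shared by all of these genes.

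The remainder of the family and its partners held changes of both signs. Of 16 such genes 15 were tested, each by its brightest probe. BIK, a BH3-only protein of the endoplasmic reticulum, read 2.67 and 3.0 in MDAH controls, 3.69 and 4.18 after silencing, 0.36 and 0.77 in SKOV3 controls and 1.34 and 2.17 after silencing. It rose by 1.15 in the average (SE 0.23, adjusted p = 0.0377, limma), with the silenced arrays above the controls in both lines. Without a control array of either line or without either sh-SFPQ#3 array BIK no longer passed (0.94 to 1.25, adjusted p from 0.0736 to 0.155), nor did it without a filter on dim probes (adjusted p = 0.0667). BMF, the BH3-only protein that dynein light chain 2 tethers to the cytoskeleton, read 0.49 and -0.40 in MDAH controls, 0.30 and 1.22 after silencing, -2.59 and -3.22 in SKOV3 controls and -1.56 and -0.62 after silencing, with an average of 1.26 that did not pass (adjusted p = 0.0733). BCL2A1, an antiapoptotic member, read 3.26 and 3.27 in MDAH controls, 2.59 and 2.77 after silencing, 3.20 and 3.37 in SKOV3 controls and 2.60 and 2.92 after silencing, and it fell by 0.56 in the average (SE 0.12, adjusted p = 0.0461), a call that was lost with any array left out (adjusted p from 0.0626 to 0.164), without a filter on dim probes (0.0812) and with unnamed probes included (0.0529). BAD, a BH3-only member, had an average of -0.18 (adjusted p = 0.556). The median over the 15 genes was 0.12, beside 0.04 for all probes. Between the control groups 6 of the 15 were called, beside 56.4% of all probes. BMF was higher in MDAH by 2.95, BIK by 2.27 and HRK by 1.37, and BNIP2 was lower by 0.89 and BOK by 0.57. BCL2L10, the last of the 6, was not well above background on any SKOV3 array and was at least 1.49-fold higher in MDAH cells (adjusted p = 0.00444, limma).

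Downstream of the mitochondria 0 of 16 genes were called on silencing, in either line or in the average. Of all probes 2.27% were called in MDAH, 1.16% in SKOV3 cells and 6.90% in the average, so that few calls were to be had among 16 genes. The highest averages were those of BIRC3, an inhibitor of apoptosis protein (0.54, adjusted p = 0.287), and CASP9, the initiator caspase (0.41, adjusted p = 0.123), and the lowest those of APAF1, the platform that activates it (-0.37, adjusted p = 0.226), and DIABLO, which blocks inhibitors of apoptosis (-0.19, adjusted p = 0.593, limma). CYCS, which encodes cytochrome c, averaged -0.11. The median was 0.02. Between the control groups 10 of the 16 were called, beside 56.4% of all probes. Among them were BIRC3, higher in MDAH cells by 4.03, the mitochondrial flavoprotein gene AIFM1, higher by 1.11, and the mitochondrial protease gene HTRA2, higher by 0.78. The MDAH minus SKOV3 difference was -1.44 for BIRC5, which encodes survivin, -0.89 for OPA1, which shapes the mitochondrial cristae, and -0.75 for TMBIM6, which encodes BAX inhibitor 1.

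Of 17 regulators of the members' levels or activity 14 were tested. DYNLL2, the dynein light chain that holds BMF, read 2.72 and 3.0 in MDAH controls, 2.40 and 2.19 after silencing, 4.35 and 4.56 in SKOV3 controls and 3.58 and 3.22 after silencing. It fell by 0.81 in the average (SE 0.14, adjusted p = 0.0261, limma) and was the only one called on silencing, though not without a control array of either line or without either sh-SFPQ#3 array (-0.72 to -0.88, adjusted p from 0.0617 to 0.104) or without a filter on dim probes (0.0507). TRIB3 and DDIT3, genes of the integrated stress response, averaged 0.60 (adjusted p = 0.163) and 0.58 (adjusted p = 0.365), and FBXW7, a ubiquitin ligase subunit for MCL1, averaged -0.36 (adjusted p = 0.268). In the average 6.90% of all probes were called on silencing, and the median average change of these regulators was 0.06. Between the control groups 11 of the 14 were called, beside 56.4% of all probes. Among them were TRIB3, higher in MDAH cells by 2.62, and GSK3B, a kinase that marks MCL1 for degradation, lower by 1.84. The MDAH minus SKOV3 difference was -1.59 for DYNLL2, -2.01 for the transcription factor gene E2F1, -1.31 for USP9X, a deubiquitinase of MCL1, and -0.83 for the transcription factor gene STAT3.

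**Figure D4:**
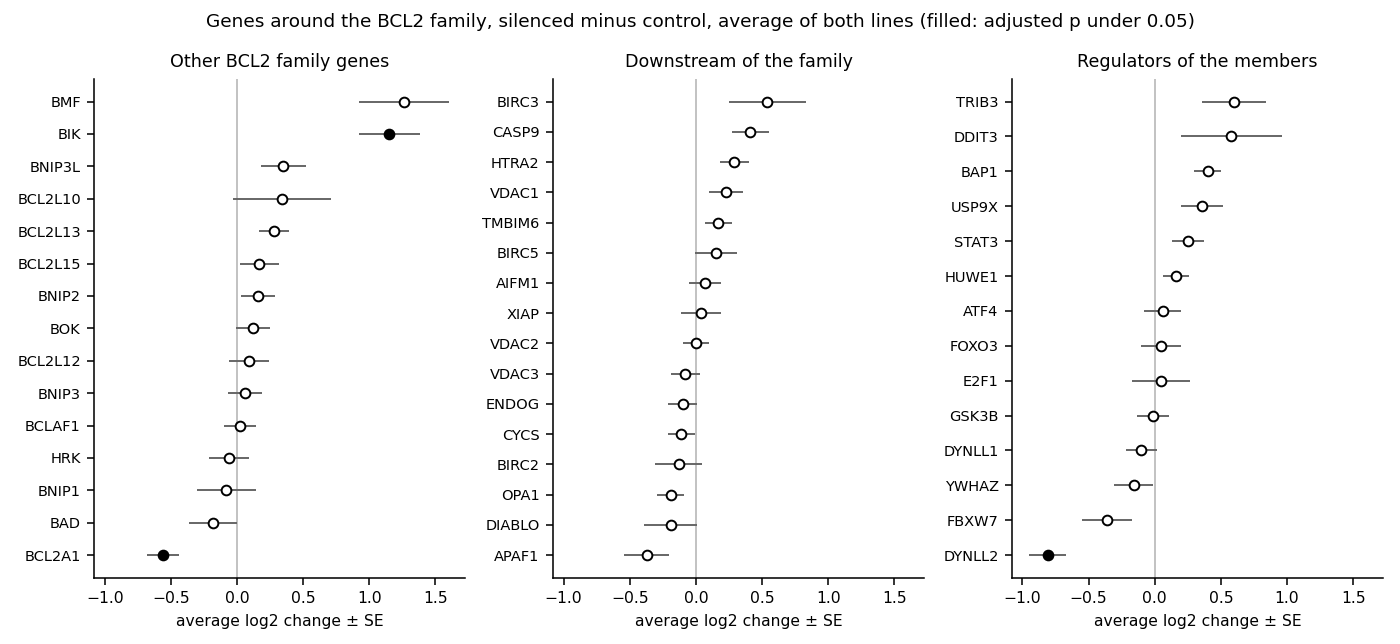
Average log2 change on silencing over both lines with its SE, for the tested genes of the 3 lists around the members, ordered by size. Filled points had an adjusted p under 0.05, which holds for BIK and BCL2A1 among the other family genes and for DYNLL2 among the regulators. BCL2L10 was well above background in MDAH cells alone.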

How the data were processed

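Per the file headers, the authors deposited the intensity of each spot of 8 Agilent arrays (human design built on hg19) after background subtraction in Feature Extraction 11.5.1.1, while the sample labels name version 10.7.3.1. They also deposited a table of log2 values, which correlated at an r that rounds to 1.0 with quantile-normalized log2 signals centred on the probe's median over the arrays. The flags for outliers and for signals well above background were used as deposited.

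Control spots and 209 to 310 outlier spots per array were dropped. The log2 signals of a probe's spots were averaged, and the array's 75th percentile was subtracted. No array held saturated spots. RefSeq accessions, without versions, named 28166 of 30870 probes. Probes well above background in both arrays of at least 1 group were tested (20929), which included all 15 member probes. limma 3.58.1 in R 4.3.3 fitted all 4 groups together, with Benjamini-Hochberg adjustment, a prior of 2.75 and 4 residual degrees of freedom. The number of arrays limits the precision. The fit was tested on simulated data.

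All members and their probes are named, with SFPQ. From each of 3 lists of related genes those called in any contrast are named (at most 6, by adjusted p), with the 2 highest and 2 lowest averages among probes well above background on all arrays, and CYCS was chosen after its values were seen. Some genes of the lists are not reported here and were left out of the lists' counts and medians. Likeness to BCL2L1 and to the most variable member was taken as Pearson's r. The members and lists were chosen with earlier results of these data known. Other scalings, filters, probe choices, tests and designs were tried, and each array was left out in turn. Gene coordinates are not given, since the arrays and the gene table refer to different builds, and probe sequences were not used here.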

Additional observations from a re-analysis of the deposited data

How the results depend on the processing

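The average fall of the BCL2 NM_000633 probe kept its direction and its call under all 10 other scalings, filters and designs that could be fitted with it (-1.10 to -3.14, adjusted p from 0.00288 to 0.0448, limma). Among these, quantile normalization and the authors' log2 values are nearly the same data (-3.10 with each) and not separate checks. The array floor is also among them and is no further support, since it replaces the dim signals. The methods' t-test was run only within a line, where this probe did not pass (adjusted p = 0.388 in MDAH and 0.457 in SKOV3 cells). The filters that kept the brightest probe of a gene or the probes well above background on all 8 arrays removed the probe. The share of all probes called, given as a percent, moved too. Member calls in the average went from 1 (6.90%) to 2 with median centring (BCL2L11 NM_138621 added, 6.49%), to 4 with normexp (8.83%) and 4 with a trended, robust prior (9.58%; BCL2L11 NM_138621, MCL1 and BID A_33_P3227041 added), to 2 with the filter over all 8 arrays (BCL2L11 NM_138621 and MCL1, 8.97%) and to 0 with the brightest probe per gene (5.66%). In MDAH cells they went from 0 (2.27%) to 1 with normexp (3.80%), the filter over all 8 arrays (1.77%) and the trended prior (3.63%), which was MCL1, and to 1 with the MDAH arrays alone (BCL2 NM_000633, 1.37%). In SKOV3 cells they went from 0 (1.16%) to 2 with normexp (BCL2 NM_000633 and BCL2L11 NM_138621, 3.41%). Normexp also called the 2 BCL2 probes apart from each other in the average, which is 1 comparison. It turned the NM_000657 change in MDAH cells to 0.03. The array floor, chosen after the data were seen, gave 2 calls in MDAH cells (4.16%), 1 in SKOV3 cells (2.07%), 4 in the average (9.76%) and 2 BCL2 probes apart from each other in the average. Between the control groups the methods' t-test gave 5 member calls (38.7% of all probes), 4 of them among the 8 of limma (56.4%).

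Leaving out an array left 1 array in its group. The average change of the BCL2 NM_000633 probe then ranged from -3.72 to -2.51. Which member probes were called moved with the array left out, and so did the calls among all probes. The cause was not tested.

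Deviations from the group means correlated at 0.07 between the lines' equally numbered controls and at 0.37 between arrays of the same shRNA, with 2 pairs of each. The main fit did not pair samples by number. In the silenced arrays the number is the shRNA, shared by both lines, so that a shared shRNA effect stayed in the spread of that fit. With the numbers as a replicate block there were 2 member calls in MDAH (5.71% of all probes called), 2 in SKOV3 cells (4.67%, both BCL2 probes in each), 3 in the average (BCL2L11 NM_138621 added, 11.9%) and 10 between the controls (60.6%). The block also gave 2 member probes apart from the others of their gene in each of MDAH cells, SKOV3 cells and the average. The share of all probes called apart was taken for the main fit only. The counts of probes apart under the block, normexp and the array floor therefore have no share of all probes beside them.

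The difference between the lines gave 0 member calls under every setting run. Depth of signal limits the BCL2 NM_000633 probe in silenced cells, where 3 of 4 arrays give only an upper bound.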
